A study of Drosophila melanogaster with 16 samples.

Results

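The change in RNA between nuclear cycle 14 (NC14) and stages 7 to 8 (St7-8) was examined in Drosophila melanogaster embryos of the control genotype of a study of the cofactor JASPer. The control libraries were chosen by their labels, which gave 2 libraries of wm4h;+/+ at St7-8 and 2 at NC14, so 4 of the 16 libraries of the series. wm4h is an inversion on the X chromosome. It brings w, a gene of eye pigment transport, beside heterochromatin, and every genotype of the series carries it. The other 12 libraries were 2 at each stage from embryos homozygous for JasperSu113 (labelled Su113), JasperSu140 (Su140) or Su(var)3-906 (Su(var)3-9), each in the wm4h background. Each library held total RNA from a pool of 50 embryos, prepared with a stranded kit. The protocol in the labels gives 1 h of egg laying and 2 h of ageing at 25 °C for the libraries of both stages, and names hand sorting beside NC14. Nothing in the labels says whether the 2 pools of a group came from separate cages or days, so p-values here rest on the spread between pools, part of which may be technical.

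At NC14 the fly embryo changes from a syncytium into a sheet of cells, while its own genome takes over from RNAs laid down by the mother. A small set of short, early zygotic genes drives the ingrowth of membrane between the nuclei, and gap and pair-rule transcription factors divide the body axis into segments. During gastrulation and the extension of the germ band, at St7-8, the mesoderm has folded inward, segment polarity and Hox genes take over the pattern, and Notch signalling acts in the neural ectoderm.

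No gene passed the test between St7-8 and NC14 in wm4h. Of 12398 genes tested, 0 reached an adjusted p of 0.05 by edgeR (0% called), the smallest adjusted p being 0.324, while 1395 genes had an unadjusted p under 0.05, where 620 are expected by chance. No single gene is therefore described below as having risen or fallen in wm4h, and the values of its 4 libraries are given instead. Levels are CPM (counts scaled to a common library size after TMM), which are not divided by gene length. By DESeq2, 462 genes passed (193 higher, 269 lower, 3.73% called). In edgeR without NC14 replicate 2, which leaves a lone NC14 library assumed to vary like the other groups, 186 passed (21 higher, 165 lower, 1.5% called). These 2 sets shared 93 genes, which were 20.1% of the DESeq2 set and 50% of the other.

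In the same model, with the same number of libraries, the stage contrast passed for 2699 genes in Su113 (1500 higher, 1199 lower, 21.8% called). It passed for 4165 genes in Su140 (2180 higher, 1985 lower, 33.6% called) and for 2835 in Su(var)3-9 (1243 higher, 1592 lower, 22.9% called). For the mean of these 3 genotypes 6205 genes passed (3209 higher, 2996 lower, 50% called). Where a gene is said below to have risen or fallen in the other genotypes, it passed in this mean contrast, and not always in each genotype. Every such count in a list stands against 3209 genes that rose and 2996 that fell among the 12398 tested. The median standard error (SE) of the stage difference was 0.37 in wm4h, against 0.38 to 0.39 in the 3 other genotypes, on the log2 scale. The median size of the difference was 0.346 in wm4h, against 0.63 with JasperSu113, 0.76 with JasperSu140 and 0.666 with Su(var)3-906. These SE are alike by construction, since 1 model with 1 spread per gene was fitted to all groups. Of the 4 pairs of NC14 libraries the wm4h pair differed most (SD of the log2 CPM difference 0.852, against 0.567 to 0.738 elsewhere). A p that misses the threshold does not show that a level was the same at both stages. The difference between wm4h and the mean of the other genotypes was itself tested for each gene, and 0 genes passed (0% called), with 2551 at an unadjusted p under 0.05.

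The wm4h St7-8 libraries stood apart from each other, and replicate 2 differed less from NC14 than replicate 1 over genes that changed with stage elsewhere. To place them, 589 genes were taken that had passed the stage contrast in the same direction in each of the 3 other genotypes, 290 higher and 299 lower at St7-8. The means compared in those contrasts came from no wm4h library. All 16 libraries, wm4h among them, entered the filter, the scaling and the spread per gene behind their adjusted p. The choice of genes was thus not wholly independent of wm4h. The idea of such a set also came after the wm4h counts had been seen. Of the 290 genes higher at St7-8 elsewhere, 276 (95.2%) lay above both NC14 libraries in wm4h St7-8 replicate 1, while 175 (60.3%) did so in replicate 2 and 44 (15.2%) lay below both. Over all genes tested, 41% lay above both NC14 libraries in replicate 1 and 40.2% in replicate 2, and 27.7% lay below both in replicate 2. Of the 299 genes lower at St7-8 elsewhere, 289 (96.7%) lay below both NC14 libraries in replicate 1. In replicate 2 just 129 (43.1%) lay below both and 101 (33.8%) lay above both. Of all genes tested, 32.8% lay below both in replicate 1 and 27.7% in replicate 2, and 40.2% above both in replicate 2. In replicate 2 neither set thus lay on the side against its label more often than all genes did. The genes were chosen on the libraries of the other genotypes, so that smaller differences in wm4h than in those are in part fixed by the choice, and the medians are a description. The median log2 difference of the higher set from mean NC14 was 0.78 in replicate 1 and 0.17 in replicate 2, against a median stage change of 1.70 in the other genotypes. That of the lower set was -0.55 in replicate 1 and -0.02 in replicate 2, against -0.79 in the other genotypes.

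**Figure D1:**
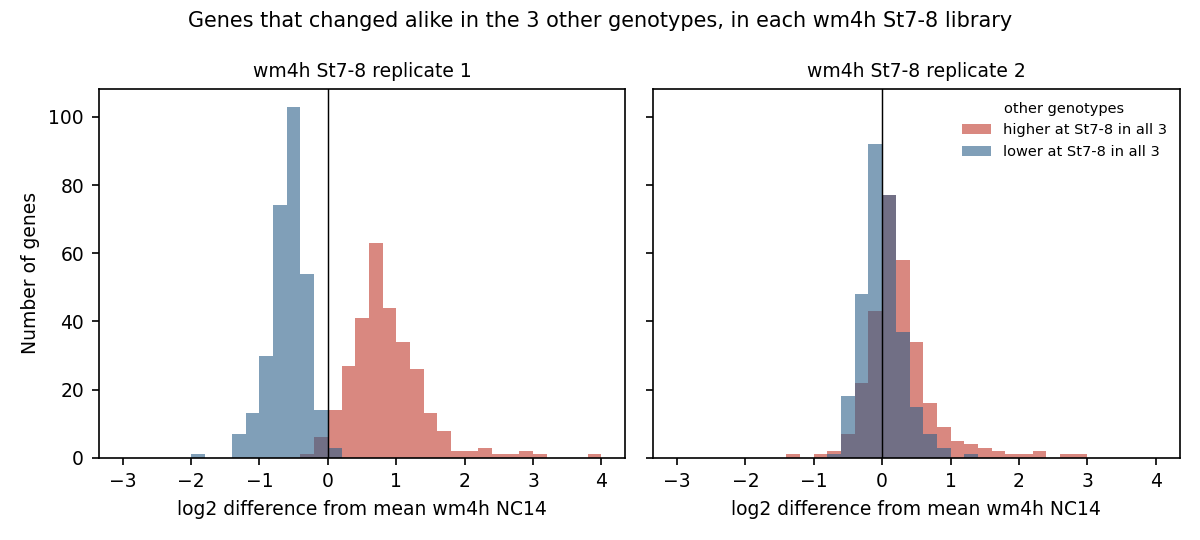
Histograms of the log2 difference of each wm4h St7-8 library from the mean of the 2 wm4h NC14 libraries, for the 290 genes higher (red) and the 299 genes lower (blue) at St7-8 in all 3 other genotypes. In replicate 1 the 2 sets lie on opposite sides of 0, with medians of 0.78 and -0.55, and in replicate 2 they overlap, with medians of 0.17 and -0.02.

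The same genes were turned into a position for each library, on a scale where 0 is the mean NC14 level and 1 the mean St7-8 level of the other genotypes. wm4h St7-8 replicate 1 stood at 0.656 and replicate 2 at 0.212, and wm4h NC14 replicates 1 and 2 stood at 0.127 and 0.0965. The St7-8 libraries of the other genotypes, which set the scale, stood between 0.807 and 1.37, and their NC14 libraries between -0.229 and 0.32. Since those libraries chose the genes and set the scale, wm4h is drawn toward the middle by construction, and its place against them was not tested. Replicate 2 lay above both wm4h NC14 libraries. It lay below 1 NC14 library of the series, Su(var)3-9 replicate 2 at 0.32, the next highest being Su(var)3-9 replicate 1 at 0.153. Over the 6621 genes with at least 5 CPM, wm4h St7-8 replicate 2 and NC14 replicate 2 were the most alike of the 6 pairs of wm4h libraries, with 1.47% of genes at least 2-fold apart. The 2 St7-8 libraries were 2-fold apart for 4.4% of these genes, and the 2 NC14 libraries for 3.5%. wm4h St7-8 replicate 1 differed 2-fold from NC14 replicate 1 for 8.17% of the genes and from NC14 replicate 2 for 4.62%. Over the 589 stage genes the order was another one. There the 2 NC14 libraries were the most alike, with 0.679% of genes 2-fold apart. St7-8 replicate 2 differed from NC14 replicates 1 and 2 for 3.74% and 4.07%, and St7-8 replicate 1 from each of them for 20.9%.

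**Figure D2:**
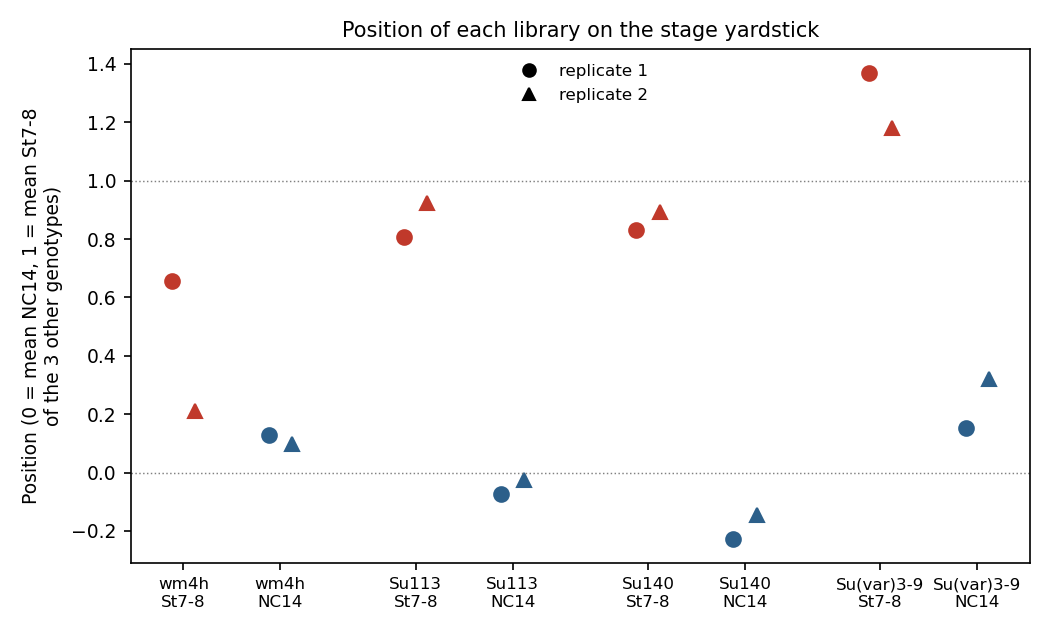
Position of each of the 16 libraries, by group, on the scale set by the 589 genes (0 is the mean NC14 and 1 the mean St7-8 of the other genotypes). Circles are replicate 1 and triangles replicate 2, St7-8 is red and NC14 blue, and wm4h St7-8 replicate 2 stands at 0.212, against 0.656 for replicate 1 and 0.127 and 0.0965 for wm4h NC14.

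Depth differed among the libraries, and its part in these differences was not tested. wm4h St7-8 replicates 1 and 2 had 70635572 and 82871567 counts, and wm4h NC14 replicates 1 and 2 had 59662040 and 91678951, within the 43466130 to 92790237 of the series. The SD of the log2 CPM difference between the wm4h St7-8 replicates was 1.021. For the St7-8 pairs of Su113, Su140 and Su(var)3-9 it was 1.338, 1.547 and 0.924, so the wm4h pair was not the widest apart. In bulk RNA, fewer cells of a type and less RNA per cell cannot be told apart, and neither can a mixture of younger and older embryos and a pool of one age between them. The values of wm4h St7-8 replicate 2 are given for every gene below, and the 2 libraries were neither exchanged nor regrouped. Whether its embryos were of the labelled stage was not tested. These same 2 libraries are the control for every comparison of a mutant with wm4h at St7-8 in the series.

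The early zygotic genes of cellularization stood on different sides of NC14 in the 2 St7-8 libraries, or apart from it in replicate 1 alone. slam (chromosome 2L, 6372388 to 6377284), which carries membrane to the furrow between nuclei, stood at 1269 and 3951 CPM in wm4h St7-8 replicates 1 and 2, against 2648 and 3704 CPM in NC14. Replicate 1 lay below both NC14 libraries and replicate 2 above both. bnk (chromosome 3R, 31193362 to 31194389), which restrains the contraction of the furrow, stood at 145 and 530 CPM at St7-8, against 478 and 383 CPM at NC14. nullo (chromosome X, 7049476 to 7050321), needed for stable furrows, stood at 62.4 and 143 CPM at St7-8, against 76.6 and 72.1 CPM at NC14. All 3 genes had the order of replicate 1 lowest and replicate 2 highest of the 4 libraries.

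halo, a regulator of lipid droplet transport, stood at 179 and 604 CPM at St7-8, against 786 and 604 CPM at NC14. Z600, an inhibitor of mitosis, stood at 24.8 and 66.8 CPM at St7-8, against 211 and 58.2 CPM at NC14. CG14427, taken with this group, stood at 82.1 and 126 CPM at St7-8, against 122 and 179 CPM at NC14. Of the 6 tested members of this list, 6 lay below both NC14 libraries in St7-8 replicate 1, while 3 lay above both and 0 below both in replicate 2. Over all genes tested 32.8% lay below both in replicate 1, and 40.2% above and 27.7% below in replicate 2. The median log2 difference from mean NC14 was -1.43 in replicate 1 and 0.06 in replicate 2, where that over all genes tested was 0.03 and 0.02. In the other genotypes all 6 fell (edgeR, adjusted p of the mean contrast from 4.66e-05 to 0.000296), with a median log2 change of -2.87. The summed level of the list was 1762 and 5421 CPM in wm4h St7-8 replicates 1 and 2, against 4321 and 4999 CPM in wm4h NC14. In the other genotypes it lay between 105 and 3206 CPM at St7-8, and between 3136 and 7029 CPM at NC14. The seventh member of the list, Sry-alpha, had 0 counts in all 16 libraries of the series.

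The same order was found in scw, Elba1 and Elba3. scw, a BMP ligand of the dorsal embryo, stood at 78.2 and 214 CPM at St7-8, against 81.2 and 98 CPM at NC14. Elba1 (chromosome 2L, 4683052 to 4684461), a subunit of the early embryonic insulator complex ELBA, stood at 148 and 407 CPM at St7-8, against 236 and 295 CPM at NC14. Elba3, its neighbour and the adaptor of that complex, stood at 125 and 364 CPM at St7-8, against 330 and 245 CPM at NC14. In each of them replicate 1 was the lowest library and replicate 2 the highest. By contrast insv, a repressor of the same BEN-domain family as Elba1, stood at 347 and 476 CPM at St7-8, against 662 and 714 CPM at NC14, with both St7-8 libraries below both of NC14.

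In the test of the difference between the stage change of wm4h and that of the other genotypes, these genes included the smallest adjusted p, and none passed with both St7-8 libraries. For nullo it was 3.83 ± 0.65 (log2, SE, adjusted p = 0.0864 by edgeR), for scw 3.28 ± 0.50 (0.0864), for Elba1 2.97 ± 0.48 (0.0864) and for slam 2.83 ± 0.51 (0.104). A positive value says that the gene was less reduced at St7-8 in wm4h than elsewhere. Others at 0.0864 by edgeR went the other way: Polr3A at -1.81 ± 0.26, D19A at -2.52 ± 0.37 and miple2 at -1.43 ± 0.23. Polr3A stood at 12.9 and 11 CPM in wm4h St7-8 replicates 1 and 2, against 11.5 and 14.1 CPM at NC14. D19A stood at 3.14 and 2.54 CPM against 2.5 and 2.4 CPM, and miple2 at 37.3 and 39 CPM against 64.7 and 46.9 CPM. Without wm4h St7-8 replicate 1, so with replicate 2 alone as St7-8, 1308 genes passed that test (921 higher, 387 lower, 10.6% called), assuming that the lone library varies like the other groups. Among them were nullo at 4.31 ± 0.66 (adjusted p = 0.00979), scw at 3.83 ± 0.40 (0.00389), Elba1 at 3.52 ± 0.38 (0.00389), Elba3 at 3.34 ± 0.38 (0.00479), slam at 3.43 ± 0.37 (0.00389), bnk at 3.54 ± 0.38 (0.00389) and halo at 2.17 ± 0.38 (0.0137). Without replicate 2 the count was 0, with 766 genes at an unadjusted p under 0.05, and slam stood at 1.79 ± 0.37 (adjusted p = 0.568).

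The segmentation factors did not follow that order. The pair-rule genes were low in both St7-8 libraries: of 8 tested, 7 lay below both NC14 libraries in both, with a median log2 change of -0.80, where 14.6% of all genes tested did so and the median of all genes was 0.08. eve (chromosome 2R, 9979319 to 9980795), which sets the odd-numbered parasegments, stood at 116 and 121 CPM at St7-8, against 426 and 248 CPM at NC14. ftz (chromosome 3R, 6864324 to 6866244), its counterpart for the even-numbered ones, stood at 173 and 152 CPM at St7-8, against 523 and 298 CPM at NC14. hry, a repressor of ftz, stood at 126 and 145 CPM at St7-8, against 355 and 244 CPM at NC14. For these 3 genes the St7-8 libraries lay close to each other and clear of both NC14 libraries.

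The log2 change was -1.51 ± 0.44 for eve, -1.34 ± 0.33 for ftz and -1.14 ± 0.36 for hry (SE, adjusted p = 0.324 each by edgeR). By DESeq2 these 3 passed, with adjusted p of 0.0201, 0.00541 and 0.0363. ftz also passed by edgeR without NC14 replicate 2, at -1.69 (adjusted p = 0.0451). opa, a timing factor of late segmentation, stood at 643 and 361 CPM at St7-8, against 945 and 812 CPM at NC14, and odd at 121 and 119 CPM against 249 and 167 CPM. prd stood at 193 and 128 CPM at St7-8, against 257 and 270 CPM at NC14, and run at 202 and 180 CPM against 302 and 277 CPM, again with no overlap of the stages. slp1, the exception, stood at 101 and 78.3 CPM at St7-8, against 91.7 and 81 CPM at NC14. Elsewhere 3 of the 8 fell and 1, slp1, rose.

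Gap genes, the first zygotic regulators of the axis, lay below both NC14 libraries in both St7-8 libraries for 5 of 7 members and in replicate 1 for 7 of 7, where 14.6% and 32.8% of all genes tested did so. kni stood at 106 and 194 CPM at St7-8, against 261 and 276 CPM at NC14. hkb, a factor of the terminal gut regions, stood at 52.4 and 94.2 CPM at St7-8, against 137 and 133 CPM at NC14. Both genes were lower in replicate 1 than in replicate 2, with both St7-8 libraries below NC14. gt, at 108 and 189 CPM against 260 and 241 CPM, and Kr, at 260 and 347 CPM against 432 and 550 CPM, had the same order.

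hb, laid down by the mother and transcribed again in the embryo, stood at 327 and 697 CPM at St7-8, against 631 and 740 CPM at NC14, so that replicate 2 lay between the NC14 libraries. tll, which patterns the termini, stood at 56.3 and 134 CPM at St7-8, against 131 and 179 CPM at NC14, with replicate 2 again between them. knrl was the gap gene with replicate 2 below replicate 1, at 60.7 and 41.8 CPM at St7-8, against 140 and 84.2 CPM at NC14. The median log2 difference from mean NC14 over the 7 was -1.21 in replicate 1 and -0.47 in replicate 2. Elsewhere 6 of the 7 fell, with a median change of -1.13, and knrl did not pass (-0.15 ± 0.22, adjusted p = 0.60 by edgeR).

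**Figure D3:**
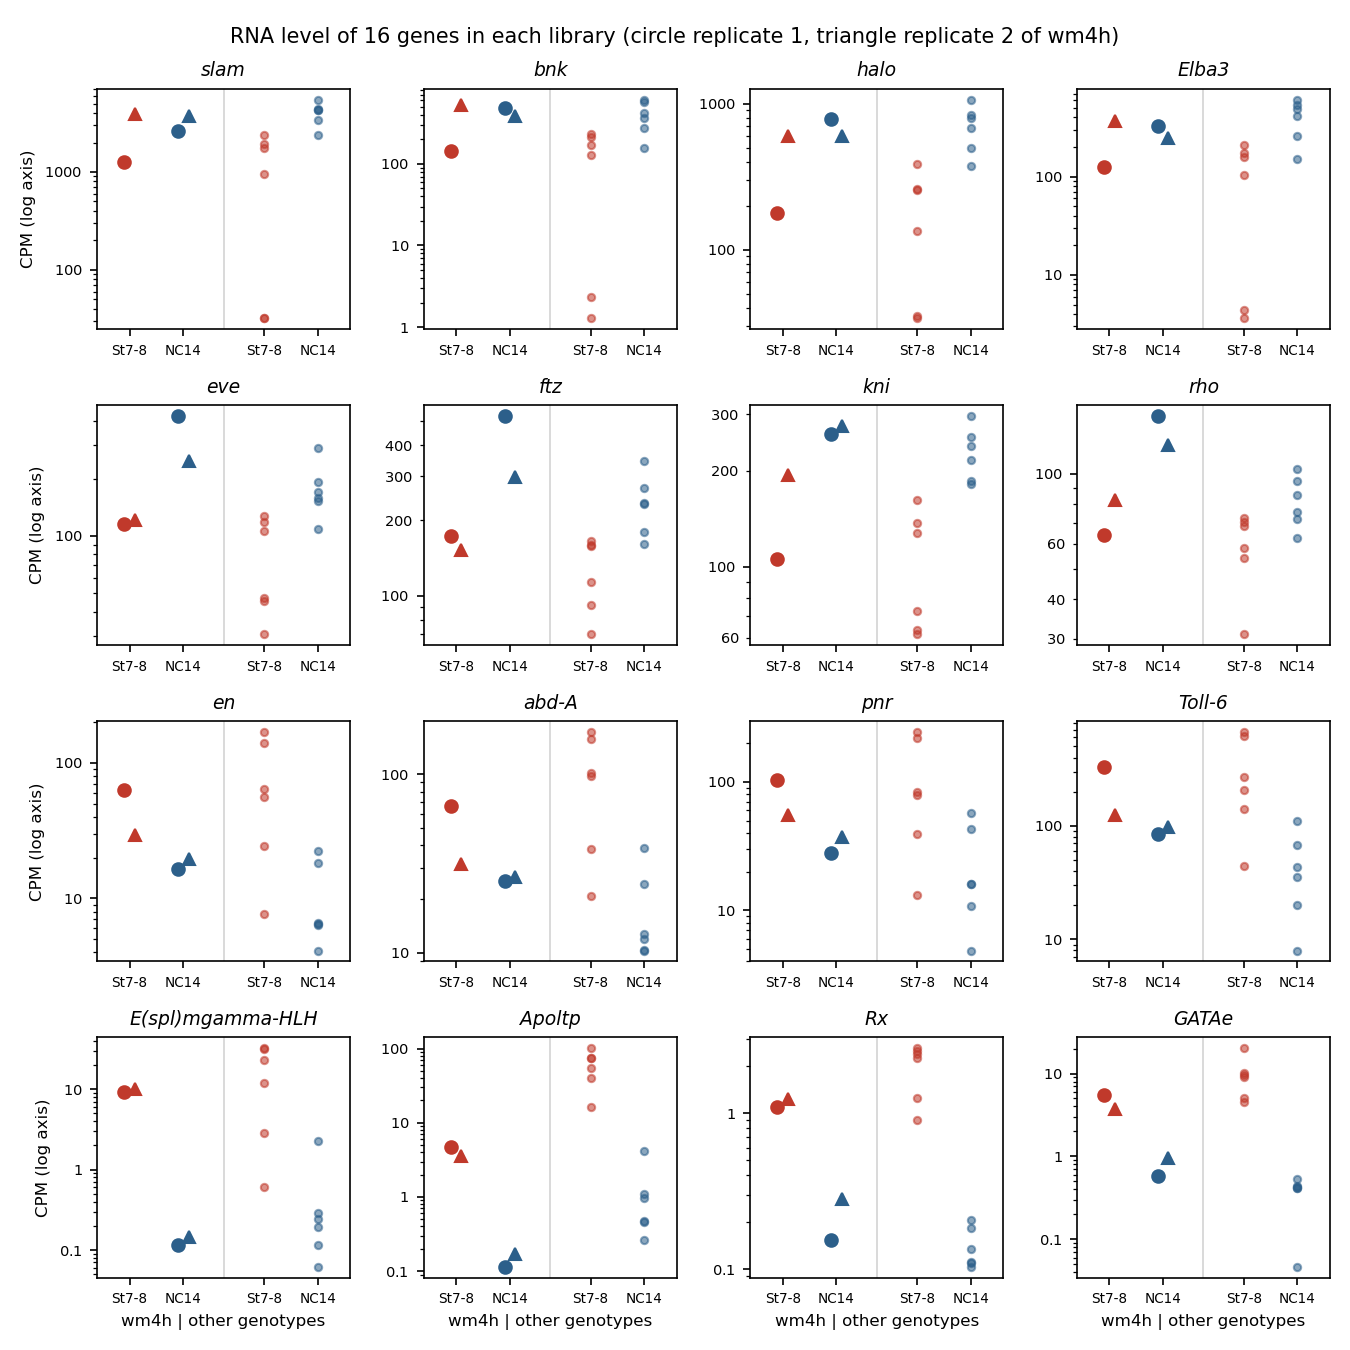
Level in CPM on a log axis of 16 genes in every library, with wm4h to the left of the grey line (circle replicate 1, triangle replicate 2) and the 12 libraries of the other genotypes to its right, St7-8 in red and NC14 in blue. For slam, bnk and Elba3 the triangle of wm4h St7-8 lies above both NC14 libraries, whereas for eve, ftz, E(spl)mgamma-HLH, Apoltp and Rx both St7-8 libraries lie on the same side of NC14.

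Segment polarity genes differed between the St7-8 libraries and among themselves. en (chromosome 2R, 11524006 to 11528210), which marks the posterior compartment of each segment, stood at 63.7 and 29.4 CPM at St7-8, against 16.6 and 19.4 CPM at NC14. Its neighbour and paralog inv stood at 4.6 and 4.84 CPM at St7-8, against 2.18 and 1.91 CPM at NC14. hh, the ligand sent from the same cells, stood at 36.9 and 16 CPM at St7-8, against 15.9 and 20.3 CPM at NC14. For en and inv the stages did not overlap, and for hh replicate 2 lay between the NC14 libraries, just above the lower one.

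gsb stood at 36.3 and 16.8 CPM at St7-8, against 7.68 and 18.7 CPM at NC14, and ptc, the receptor of Hh, at 819 and 528 CPM against 906 and 937 CPM. Of 10 segment polarity genes, 8 lay above both NC14 libraries in replicate 1 and 3 in replicate 2, while 2 lay below both in replicate 1 and 4 in replicate 2. Over all genes tested 41% and 40.2% lay above both in replicates 1 and 2, and 32.8% and 27.7% below both. Both libraries together lay above both NC14 libraries for 3 of 10 genes, where 21.2% of all genes tested did so. Outside wm4h 8 of the 10 rose, with a median log2 change of 1.64, against 0.68 in wm4h replicate 1 and -0.11 in replicate 2.

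Among the Hox genes, which give segments their identity, 5 of 8 lay above both NC14 libraries in both St7-8 libraries, where 21.2% of all genes tested did so. abd-A (chromosome 3R, 16807214 to 16830049) stood at 66.2 and 31.5 CPM at St7-8, against 25.1 and 26.5 CPM at NC14. Abd-B stood at 59.2 and 40.4 CPM at St7-8, against 26 and 29.3 CPM at NC14. Scr stood at 20.2 and 10.2 CPM at St7-8, against 8.22 and 7.3 CPM at NC14. In each of these replicate 1 was the highest and replicate 2 stood between it and NC14.

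lab stood at 7.68 and 3.99 CPM at St7-8, against 2.68 and 2.8 CPM at NC14, and pb at 0.765 and 0.809 CPM against 0.382 and 0.329 CPM. Ubx, at 46.7 and 19.4 CPM against 25.1 and 18.9 CPM, and Antp, at 212 and 93 CPM against 148 and 91.3 CPM, had replicate 1 above both NC14 libraries and replicate 2 between them. Dfd, the remaining Hox gene, stood at 30.5 and 12.5 CPM at St7-8, against 32.7 and 23.2 CPM at NC14. The median log2 difference was 1.08 in replicate 1 and 0.33 in replicate 2, against 1.80 in the other genotypes, where 7 of the 8 rose. Without wm4h St7-8 replicate 1 the difference from the other genotypes passed for abd-A (-2.02 ± 0.39, adjusted p = 0.0158), Scr (-1.72 ± 0.44, 0.035), hh (-2.33 ± 0.57, 0.0306) and gsb (-2.47 ± 0.69, 0.0465) by edgeR.

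A few genes that were very low at NC14 were higher in both St7-8 libraries to a like degree. E(spl)mgamma-HLH (chromosome 3R, 25999851 to 26000761), a repressor of neural fate induced by Notch, stood at 9.34 and 9.97 CPM at St7-8, against 0.115 and 0.146 CPM at NC14. Apoltp (chromosome 2L, 9634179 to 9656026), a lipoprotein of the haemolymph, stood at 4.78 and 3.54 CPM at St7-8, against 0.115 and 0.171 CPM at NC14. Rx, a homeobox factor of the head, stood at 1.09 and 1.23 CPM at St7-8, against 0.153 and 0.28 CPM at NC14. The 2 stages were far apart for all 3, and the St7-8 replicates close together. These 3 were named for having the smallest p in this same contrast, so both traits are in part fixed by the choice.

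The log2 change was 6.17 ± 1.30 for E(spl)mgamma-HLH, 4.81 ± 0.99 for Apoltp and 2.40 ± 0.44 for Rx (SE, adjusted p = 0.324 each). In a fit to the 4 wm4h libraries alone 3 genes passed by edgeR, all higher at St7-8. They were E(spl)mgamma-HLH (adjusted p = 0.00112), Apoltp (0.0261) and sns (0.0306), a fusion receptor of myoblasts that is named here after its values were seen. sns stood at 4.99 and 5.94 CPM at St7-8, against 0.268 and 0.414 CPM at NC14. Oatp58Dc, a transporter, stood at 1.09 and 2.19 CPM at St7-8, against 0 and 0.0244 CPM at NC14, at or below the floor of 3 counts, which was 0.0573 and 0.0366 CPM in these libraries. Such a floor takes in counting error alone, because without molecular identifiers one molecule can give several reads.

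The Enhancer of split list as a whole had 6 of 11 members above both NC14 libraries in both St7-8 libraries and 0 below both, where 21.2% and 14.6% of all genes tested did so. E(spl)mbeta-HLH stood at 0.888 and 1.09 CPM at St7-8, against 0.0573 and 0.0975 CPM at NC14. E(spl)mdelta-HLH stood at 2.53 and 4.43 CPM at St7-8, against 0.229 and 0.463 CPM at NC14. In both genes the stages were well apart in all libraries. E(spl)m8-HLH stood at 8.36 and 4.08 CPM at St7-8, against 4.13 and 3.92 CPM at NC14, where replicate 2 did not exceed the higher NC14 library. The median log2 change of the list was 0.82 in wm4h, against 2.44 in the other genotypes, where all 11 rose.

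Lists of later cell types went in both directions. Both St7-8 libraries lay above both NC14 libraries for 1 of 7 endoderm and gut genes and below both for 3. These counts were 2 and 1 of 6 haemocyte genes, 3 and 1 of 7 trachea and salivary gland genes, 1 and 4 of 19 BMP and dorsal ectoderm genes, 1 and 4 of 11 gastrulation genes and 3 and 4 of 15 adhesion and matrix genes. The shares over all genes tested were 21.2% above both and 14.6% below both, and several of these counts were near them. The genes given next all lay above both NC14 libraries in both, so they do not stand for their lists. Of the endoderm and gut list, hkb, given above, lay below both. GATAe, a factor of the endoderm, stood at 5.45 and 3.72 CPM at St7-8, against 0.573 and 0.951 CPM at NC14. Pvr, the PDGF/VEGF receptor of migrating haemocytes, stood at 15.4 and 11.8 CPM at St7-8, against 6.42 and 6.3 CPM at NC14. btl, the FGF receptor of the trachea, stood at 15.3 and 12.5 CPM at St7-8, against 4.07 and 5.85 CPM at NC14. All 3 passed by DESeq2, with adjusted p of 0.00394, 0.00243 and 0.0203.

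trh, the selector of the trachea, stood at 9.88 and 17.6 CPM at St7-8, against 5.93 and 5.28 CPM at NC14. Thor, the 4E-BP repressor of translation, stood at 35 and 27.4 CPM at St7-8, against 13.5 and 10.8 CPM at NC14 (1.36 ± 0.26), with no overlap of the stages. LanA, a laminin of the basement membrane, stood at 180 and 117 CPM at St7-8, against 66.5 and 67.7 CPM at NC14. pnr, a GATA factor of the dorsal ectoderm, stood at 104 and 54.8 CPM at St7-8, against 28.1 and 36.9 CPM at NC14, and Toll-6, a receptor that guides cell intercalation, at 330 and 124 CPM against 84.2 and 97.3 CPM. In LanA, pnr and Toll-6 replicate 1 was the farther from NC14. By DESeq2 Thor passed (adjusted p = 0.000412), whereas trh (0.134), LanA (0.105), pnr (0.0837) and Toll-6 (0.139) did not.

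Mesoderm genes were split. sna, which starts the folding of the mesoderm, stood at 183 and 188 CPM at St7-8, against 346 and 320 CPM at NC14. tin, a later mesoderm factor, stood at 36.8 and 14.9 CPM at St7-8, against 12 and 11.4 CPM at NC14, and zfh1 at 214 and 103 CPM against 106 and 80.1 CPM. rho, which activates EGF receptor signalling at the sides of the mesoderm, stood at 63.9 and 82.4 CPM at St7-8, against 152 and 123 CPM at NC14. Of the 13 mesoderm genes 8 lay above both NC14 libraries in replicate 1 and 2 in replicate 2, while 4 and 10 lay below both. Over all genes tested 41% and 40.2% lay above both and 32.8% and 27.7% below both. The median log2 difference of the mesoderm genes was 0.50 in replicate 1 and -0.70 in replicate 2, against 1.08 in the other genotypes, where 7 rose and 0 fell.

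**Figure D4:**
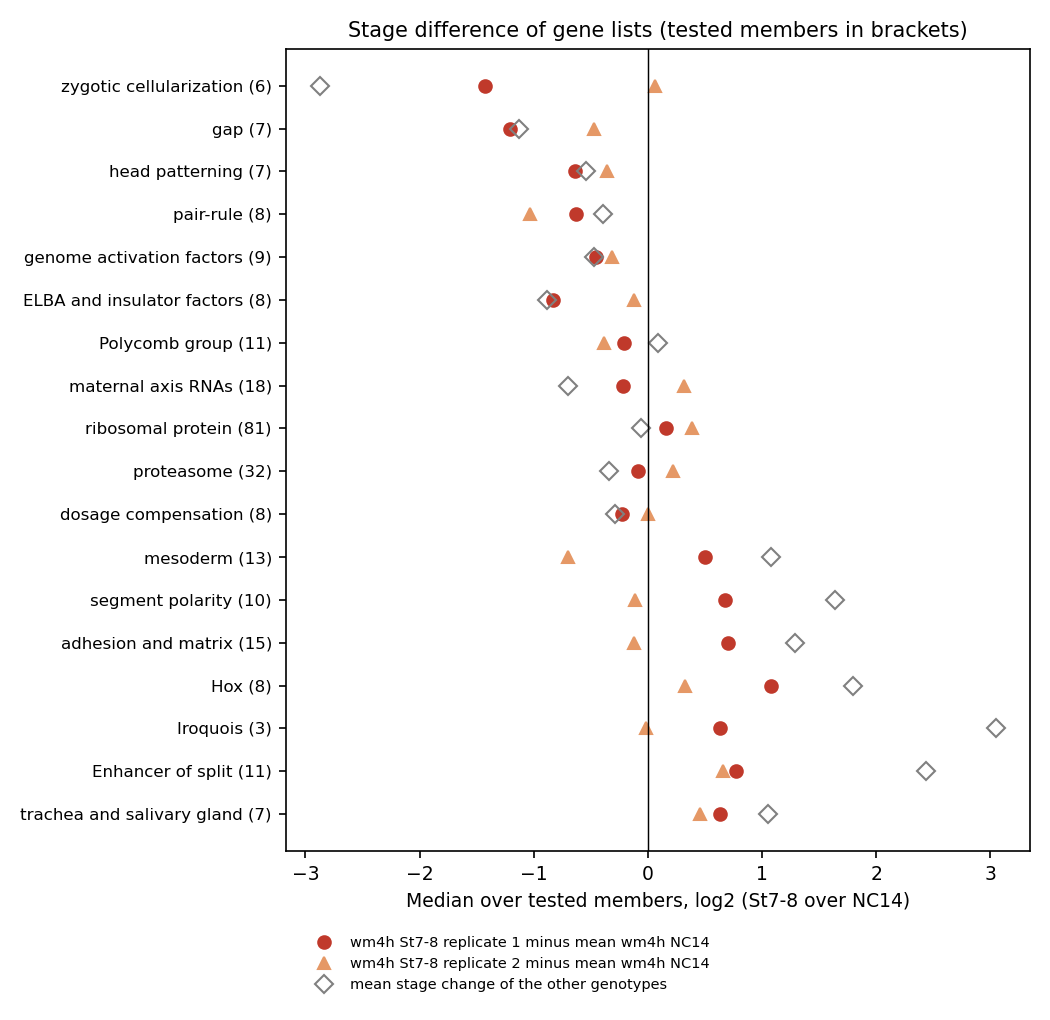
Median log2 difference between St7-8 and NC14 of 18 gene lists, with the number of tested members in brackets, for wm4h St7-8 replicate 1 (circles) and replicate 2 (triangles), each minus mean wm4h NC14, and for the other genotypes (diamonds). For cellularization the medians are -1.43 and 0.06, against -2.87 elsewhere, and for pair-rule genes they are -0.63 and -1.03, against -0.39.

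Genome activation factors lay mostly below NC14 in both St7-8 libraries. zld, the pioneer factor of zygotic genome activation, stood at 1981 and 2245 CPM at St7-8, against 3486 and 3101 CPM at NC14. Of 9 such factors 7 lay below both NC14 libraries in both, where 14.6% of all genes tested did so, and 7 fell in the other genotypes, with median log2 changes of -0.40 and -0.47. The 18 cell cycle genes of the midblastula transition were mixed, with 5 above both NC14 libraries in both St7-8 libraries, 4 below both and a median log2 change of 0.03. Among them CycE, a driver of S phase, stood at 718 and 876 CPM at St7-8, against 1299 and 1112 CPM at NC14. wech, a TRIM protein of integrin attachment sites, stood at 4223 and 4995 CPM at St7-8, against 9044 and 8922 CPM at NC14 (-0.96 ± 0.19).

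Sxl, the switch of sex determination, stood at 737 and 776 CPM at St7-8, against 1024 and 1500 CPM at NC14. msl-2, the limiting subunit of dosage compensation, stood at 135 and 171 CPM at St7-8, against 282 and 228 CPM at NC14. bun, a TSC22 family factor, stood at 508 and 474 CPM at St7-8, against 979 and 685 CPM at NC14. zld, CycE, wech, Sxl, msl-2 and bun had both St7-8 libraries below both NC14 libraries, and each fell in the mean contrast of the other genotypes. That did not hold in every genotype, and of these genes CycE alone passed in each of the 3. In Su140, zld (log2 change -0.01, adjusted p = 0.986 by edgeR), wech (-0.24, 0.34), Sxl (-0.14, 0.577) and msl-2 (-0.53, 0.208) did not pass. In Su(var)3-9, bun (-0.00) and msl-2 (-0.72, 0.132) did not pass.

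Among the genes with the smallest adjusted p, all at 0.324, were several of less known roles. The noncoding RNA lncRNA:CR42549 stood at 61.9 and 68 CPM at St7-8, against 140 and 109 CPM at NC14, and CG15480 at 37.4 and 44.4 CPM against 132 and 92.8 CPM. Dph1, an enzyme of diphthamide synthesis, stood at 109 and 139 CPM at St7-8, against 68.5 and 81.8 CPM at NC14 (0.73 ± 0.15), and its change elsewhere was 0.13 ± 0.09 (adjusted p = 0.234). CG11635 had 0 counts in both St7-8 libraries, against 0.0765 and 0.122 CPM at NC14. Whether reads were counted by strand was not given in the sources used here, so reads of overlapping and antisense genes cannot be told apart.

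Maternal RNAs of the body axes differed between the St7-8 replicates. Of 18 such genes, 12 lay below both NC14 libraries in replicate 1 and 2 in replicate 2, while 1 and 12 lay above both. Over all genes tested 32.8% and 27.7% lay below both in replicates 1 and 2, and 41% and 40.2% above both. bcd, the anterior morphogen, stood at 116 and 237 CPM at St7-8, against 125 and 143 CPM at NC14, and is named after its values were seen. smg, which clears maternal RNAs and was likewise named after its values were seen, stood at 1681 and 3067 CPM at St7-8, against 1878 and 2807 CPM at NC14. Both had replicate 1 lowest and replicate 2 highest.

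Tl, the receptor of the dorsal-ventral axis, stood at 810 and 1514 CPM at St7-8, against 1158 and 1560 CPM at NC14. cact, the inhibitor downstream of Tl, stood at 771 and 1017 CPM at St7-8, against 904 and 1088 CPM at NC14. nanos, the posterior determinant, stood at 82.2 and 101 CPM at St7-8, against 87.2 and 64.6 CPM at NC14, and stau, which localizes maternal RNAs, at 576 and 682 CPM against 841 and 790 CPM. In the other genotypes 13 of the 18 fell and 1 rose, with a median log2 change of -0.70, against -0.22 in wm4h replicate 1 and 0.32 in replicate 2.

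Ribosomal protein genes were higher in replicate 2 than in replicate 1. Of 81 tested, 70 lay above both NC14 libraries in replicate 2 and 41 in replicate 1, where 40.2% and 41% of all genes tested did so, and the median log2 difference was 0.39 and 0.16. The summed level was 71524 and 84544 CPM at St7-8, against 60779 and 71586 CPM at NC14. Outside wm4h 1 rose and 8 fell, with a median of -0.06. RpL22 stood at 549 and 585 CPM at St7-8, against 215 and 399 CPM at NC14, and RpS5b at 449 and 565 CPM against 250 and 370 CPM; both have a paralog with which reads may be shared. The medians of this list are after TMM, where those over all genes tested were 0.02 in replicate 2 and 0.03 in replicate 1. Scaling by library totals moves the median stage change of all genes to 0.210, against 0.078 after TMM. The medians of this list under that scaling are not given.

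Polycomb group genes, which keep Hox genes silent, were below both NC14 libraries in both St7-8 libraries for 6 of 11 members, where 14.6% of all genes tested were. Pc stood at 88 and 68 CPM at St7-8, against 153 and 118 CPM at NC14 (-0.80 ± 0.18), and elsewhere its change was 0.09 ± 0.10 (adjusted p = 0.488). Pc passed by DESeq2 (adjusted p = 0.0024), by edgeR without NC14 replicate 2 (-0.97, 0.0383) and, for the difference from the other genotypes, without St7-8 replicate 1 (-1.08 ± 0.22, 0.0176). Of the RNAs of dosage compensation, lncRNA:roX1 stood at 2004 and 1847 CPM at St7-8, against 1997 and 2714 CPM at NC14. lncRNA:roX2 stood at 1.67 and 1.58 CPM at St7-8, against 1.72 and 1.94 CPM at NC14, with both St7-8 libraries narrowly below both of NC14 (-0.17 ± 0.59, adjusted p = 0.946), whereas in the other genotypes it rose by 2.93 ± 0.36 (adjusted p = 0.000133). With 2 St7-8 libraries high in muscle RNA left out, a choice made after seeing the data, lncRNA:roX2 was the 1 gene whose difference from the other genotypes passed (-3.45 ± 0.40, adjusted p = 0.0452).

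Those 2 libraries were replicate 2 of Su113 and replicate 2 of Su140 at St7-8, where 12 markers of older embryonic muscle summed to 2619 and 2504 CPM. They were not the only ones with muscle RNA. Su113 St7-8 replicate 1, with a sum of 1109 CPM, was kept, though Mhc stood there at 86.8 CPM, against 447 and 412 CPM in those 2. In wm4h the sum was 734 and 835 CPM at St7-8, against 1187 and 976 CPM at NC14. Counted gene by gene, 11 of the 12 lay above both NC14 libraries in replicate 1 and 2 in replicate 2, while 1 and 4 lay below both. The shares over all genes tested were 41% and 40.2% above both, and 32.8% and 27.7% below both. Of 10 markers of older neurons, 8 lay above both in replicate 1 and 0 in replicate 2, while 2 and 7 lay below both, and their median log2 difference from mean NC14 was 1.62 in replicate 1 and -0.44 in replicate 2. Of the wm4h libraries, St7-8 replicate 1 alone was high in single muscle and nerve genes. Mhc, the muscle myosin, stood at 9.62 and 0.398 CPM at St7-8, against 0.573 and 0.317 CPM at NC14, and Act57B, a muscle actin, at 8.8 and 0.0928 CPM against 0 and 0.0244 CPM. brp, a protein of the synaptic active zone, stood at 8.51 and 0.411 CPM at St7-8, against 0.841 and 0.561 CPM at NC14.

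TwdlM, a cuticle protein gene, had 6.37 CPM in St7-8 replicate 1, at least 136-fold higher than 3 counts per NC14 library, and 0 counts in the other 3 wm4h libraries. elav, a pan-neural RNA-binding protein of older embryos, stood at 233 and 117 CPM at St7-8, against 327 and 256 CPM at NC14. Of the 14 markers of ovary and adult females 7 and 7 had 0 counts in the St7-8 libraries, against 8 and 7 in NC14, and no library of the series exceeded a sum of 2.72 CPM. The part of older embryos in the values of replicate 1 was not tested.

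The genes the series is about did not pass between the stages in wm4h. Jasper stood at 151 and 168 CPM at St7-8, against 125 and 157 CPM at NC14 (0.17 ± 0.17). JIL-1, the histone kinase that acts with it, stood at 245 and 406 CPM at St7-8, against 336 and 355 CPM at NC14. Su(var)3-9, a histone methyltransferase, stood at 136 and 93.2 CPM at St7-8, against 121 and 101 CPM at NC14, and it lies within eIF2gamma on the same strand, so that the assignment of its reads is uncertain. w stood at 0.423 and 0.557 CPM at St7-8, against 0.42 and 0.268 CPM at NC14 (0.52 ± 0.49), and overlaps kirre on the opposite strand. The stages overlapped for Jasper, JIL-1 and Su(var)3-9, whereas for w both St7-8 libraries lay just above both of NC14, with counts of 31 and 42 against 22 and 22.

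Over all genes tested, both St7-8 libraries lay above both NC14 libraries for 2624 genes (21.2%) and below both for 1813 (14.6%). On opposite sides of NC14 were 977 genes (7.88%) with replicate 1 above and replicate 2 below, and 1291 (10.4%) the other way round. Among protein-coding genes, 214 lay below both NC14 libraries in both St7-8 libraries and had an edgeR stage change at least 2-fold down. Of these, 19.6% had a single exon and 2.8% a span over 20000 bases. For the 709 above both in both, with that change at least 2-fold up, these shares were 12.8% and 13.5%. For all 10834 protein-coding genes tested they were 10.8% and 9.02%. The median span was 1850 bases for the lower genes, 2842 for the higher ones and 2668 for all. Of the 294 protein-coding genes lower in each of the 3 other genotypes, 7.48% had a single exon and 9.52% a span over 20000 bases. Their median span was 4012 bases. For the 281 higher in each, these values were 8.9%, 12.8% and 2956 bases. The sets of the other genotypes were chosen by adjusted p, with no 2-fold cut. The wm4h sets were chosen by the same libraries that they describe, and no share was tested.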

How the data were processed

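The authors deposited whole-number counts per gene, without normalization, for 16 libraries and 17753 FlyBase identifiers. The submitters' processing notes name the build dm6 and DESeq2; no source used here gives the aligner, counter, strand setting or annotation. Names and positions are from Ensembl release 115, in which 17626 identifiers were found, and the 127 without a name held 1.06% of all counts.

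In R 4.3.3 with edgeR 4.0.16, filterByExpr by group retained 12398 genes and left out 5355. After TMM scaling, a single quasi-likelihood model with 8 group means took in all 16 libraries (residual degrees of freedom 8, common biological coefficient of variation 0.401). Tests were two-sided. P-values were adjusted by Benjamini-Hochberg over all genes tested, at a threshold of 0.05, and come from this model unless another fit is named. Values after ± are SE. The test against the other genotypes took the wm4h stage change minus the mean of the 3 other stage changes. Alternatives used DESeq2 1.42.0 and limma 3.58.1, and figures python 3.11.15 and matplotlib 3.10.9. The code was tested on simulated data. Replicate numbers did not pair the libraries (correlation -0.024 in wm4h).

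Members and lists were chosen with earlier results of these data known. The rule named Jasper, JIL-1, Su(var)3-9 and w, the 6 members with the smallest adjusted p in a list (all of them where a list had 8 or fewer), the 6 genes each way with the smallest adjusted p in both contrasts, and genes with 0 counts at 1 stage. The text prints part of these and marks genes outside the rule.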

Additional observations from a re-analysis of the deposited data

How the results depend on the processing

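The stage change in wm4h gave 0 genes past the threshold in edgeR, also with RLE, upper quartile or library total scaling, no filter, a replicate block (0 genes, 1295 at an unadjusted p under 0.05), robust spread, the 2 muscle-marker libraries left out (the last 2 chosen after seeing the data), and in limma-voom (756 unadjusted). DESeq2 gave 462 (193 higher, 269 lower) and the 4 wm4h libraries alone 3 (3 higher). Leaving out 1 library gave 0 to 186 genes (higher 0 to 21, lower 0 to 165); the 186 were without NC14 replicate 2. The difference from the other genotypes gave 0 genes, with the replicate block too, 19 without a filter (16 higher, 3 lower), 899 by DESeq2 (400 higher, 499 lower), 1 (lower) without the muscle-marker libraries, and 0 to 1308 with 1 library left out (higher 0 to 921, lower 0 to 387): 1308 without St7-8 replicate 1 and 13 without NC14 replicate 2. The cause was not tested.

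Of the genes named, 88 were followed through the 14 alternatives, without Polr3A, D19A and miple2. DESeq2 gave CG11635 a negative log2 change too, but no adjusted p. Of the 88, 66 kept their direction and 22 did not, and none of the reversed values passed. With 1 wm4h library left out, the log2 change of those that reversed ranged as follows: slam -1.32 to 0.32, bnk -1.57 to 0.30, nullo -0.25 to 0.94, hb -1.07 to 0.02, hh -0.18 to 1.03, Ubx -0.18 to 1.09, scw -0.20 to 1.25, Elba1 -0.84 to 0.62, Elba3 -1.20 to 0.34, bcd -0.21 to 0.82, Mhc -0.12 to 4.47, brp -0.76 to 3.61, TwdlM 0.00 to 11.90, Jasper -0.01 to 0.34, JIL-1 -0.49 to 0.23, smg -0.48 to 0.39, slp1 -0.14 to 0.22, Tl -0.75 to 0.16, cact -0.37 to 0.03, Su(var)3-9 -0.26 to 0.29, Dfd -1.16 to 0.13 and Antp -0.36 to 0.83. Elba1 was -0.10 with limma-voom and with the replicate block, and JIL-1 0.03 with library totals. smg, at 0.02, was -0.01 with RLE and DESeq2, -0.02 with upper quartile, limma-voom, the replicate block and the wm4h libraries alone, and -0.00 without the muscle-marker libraries. Levels below 0.0366 to 0.0573 CPM, by library, rest on fewer than 3 counts.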

Other observations

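By chromosome arm, the median log2 change between St7-8 and NC14 in wm4h was 0.05 on X (1998 genes tested), 0.10 on 2L (2205), 0.08 on 2R (2512), 0.06 on 3L (2444), 0.11 on 3R (3007) and -0.03 on chromosome 4 (103). On chromosome 4, 24 genes lay below both NC14 libraries in both St7-8 libraries and 10 above both, where 14.6% and 21.2% of all genes tested did so. Of 32 proteasome genes, 10 lay above both NC14 libraries in both St7-8 libraries and 2 below, against the same 21.2% and 14.6%, while in the other genotypes 7 rose and 19 fell.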
